A study of Homo sapiens with 6 samples.

Results

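The mRNA levels of 10 Eph receptors and ephrins were compared between MSLN-silenced and control breast cancer cells. The 10 genes were chosen by gene symbol, with earlier results of these data known. They comprised the receptors EPHA1, EPHA2, EPHA4, EPHB2, EPHB3, EPHB4 and EPHB6 and the ligands EFNA1, EFNB1 and EFNB2, and all 10 were found among the 17860 genes of the expression table. The cells were HCC1806/HM3, a liver-preferring derivative of the human triple-negative breast cancer line HCC1806 that had been passaged through nude mice, labelled as human breast squamous cell carcinoma cells. Control cells (shNC, n = 3) carried a lentiviral control shRNA, and the MSLN knockdown cells (shMSLN, n = 3) carried a lentiviral shRNA against MSLN, the gene of the cell-surface glycoprotein mesothelin. Both were stably infected and selected with G418. The sources used here do not say which of the listed MSLN target sequences the sequenced cells carried, and nothing says whether the 3 shMSLN samples carried the same one. Nothing states that the 3 samples of a group were separate cultures, so p-values measure only the spread between these samples, which may be technical.

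Eph receptors form a large family of receptor tyrosine kinases, and their ligands, the ephrins, are themselves fixed to the surface of neighboring cells. Ephrin-A proteins are held by a lipid anchor and mostly bind EphA receptors, whereas ephrin-B proteins span the membrane and mostly bind EphB receptors, with EphA4 able to bind both kinds. Contact between a receptor-bearing and a ligand-bearing cell can signal into both cells and typically acts on the cytoskeleton, so that the system sets tissue boundaries, guides axons and vessels, and influences adhesion and repulsion. EphA2 and EphB4 have been widely studied in breast cancer, where EphA2 can also act without ligand, and EphB6 is a family member whose kinase domain lacks activity.

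The genes lie on several chromosomes (positions from GENCODE release 29, GRCh38). EPHA2 spans 16124337 to 16156087 and EPHB2 22710839 to 22921500 on chromosome 1, where EFNA1 lies at 155127460 to 155134857. EPHA4 is on chromosome 2 (221418027 to 221574202), EPHB3 on chromosome 3 (184561784 to 184582409), EFNB2 on chromosome 13 (106489731 to 106535662) and EFNB1 on chromosome X (68828997 to 68842147). Chromosome 7 holds EPHB4 (100802565 to 100827521), EPHB6 (142855061 to 142871094) and EPHA1 (143390289 to 143408892). Exons of EPHB4 and EPHA1 share 69 and 82 bases with the opposite-strand genes SLC12A9 and ZYX, and those of EFNB2 and EPHA4 share 1313 and 353 bases with antisense transcripts that have no row in the table. Whether reads were counted by strand is not given in the sources used here, so reads from these stretches cannot be told apart.

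The 250 bases upstream of the RefSeq start site (GRCh38.p14) are shown, 5′ to 3′ on the gene's own strand. Of the 10 genes, they are given for the 3 receptors with the largest falls and for the single ligand that rose. That ligand, EFNB2, rose little, and its call did not withstand other choices, as given below. Capitals mark every match, on either strand, to the GC box GGGCGG, the CCAAT box CCAAT, the cAMP response element TGACGTCA or the AP-1 site TGANTCA, where N is any base.
EPHA2 (chr1:16156070-16156319, reverse strand): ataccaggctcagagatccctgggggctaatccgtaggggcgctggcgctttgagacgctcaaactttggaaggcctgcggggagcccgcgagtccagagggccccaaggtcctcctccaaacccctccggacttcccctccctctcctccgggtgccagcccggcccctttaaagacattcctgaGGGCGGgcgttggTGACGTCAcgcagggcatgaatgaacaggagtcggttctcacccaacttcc
EPHB3 (chr3:184561535-184561784, forward strand): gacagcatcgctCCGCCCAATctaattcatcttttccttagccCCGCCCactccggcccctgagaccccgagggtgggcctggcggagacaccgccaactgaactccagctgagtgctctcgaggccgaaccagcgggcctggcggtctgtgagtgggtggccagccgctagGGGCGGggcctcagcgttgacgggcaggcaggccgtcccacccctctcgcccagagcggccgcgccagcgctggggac
EPHB4 (chr7:100827524-100827773, reverse strand): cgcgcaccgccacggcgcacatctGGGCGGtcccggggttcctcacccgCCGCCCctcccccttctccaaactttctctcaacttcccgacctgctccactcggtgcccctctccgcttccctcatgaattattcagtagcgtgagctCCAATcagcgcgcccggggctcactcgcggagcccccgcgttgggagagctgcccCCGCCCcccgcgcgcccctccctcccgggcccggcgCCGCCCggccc
EFNB2 (chr13:106535663-106535912, reverse strand): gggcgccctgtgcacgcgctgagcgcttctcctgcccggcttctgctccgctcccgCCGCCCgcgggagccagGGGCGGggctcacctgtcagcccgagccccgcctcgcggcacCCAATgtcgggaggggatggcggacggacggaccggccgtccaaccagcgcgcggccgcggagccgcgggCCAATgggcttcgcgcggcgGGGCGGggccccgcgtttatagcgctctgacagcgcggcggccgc
The EPHA2 stretch is the only one of the 4 that holds TGACGTCA, a palindrome with 43 bases between it and the start, and it has no CCAAT box. GENCODE places the EPHA2 start slightly further upstream, between this match and the RefSeq start. The EPHB3, EPHB4 and EFNB2 stretches carry 3, 4 and 3 GC boxes and 1, 1 and 2 CCAAT boxes, and in EPHB3 a GC box and the CCAAT box share bases. All 10 genes matched at least 1 RefSeq start, with 12 such stretches in all because EPHA4 and EPHB2 had more than 1. The 2 stretches of EPHB2 began at 22710588 and 22710589, so nearly the same bases enter the counts 2 times. GC content of the 12 stretches was 43.2% to 84.8%, which bears on matches to GGGCGG. The genome-wide stretches were not matched for it. TGACGTCA occurred in 1 of the 12 stretches and in 1.65% of 35116 such stretches across the genome. GGGCGG occurred in 12 of 12, against 42.6% genome-wide, and CCAAT in 7 of 12, against 32.0%. TGANTCA was found in 0 of 12, against 6.57%. These matches describe letters in a window, and GC boxes were found in genes that fell, in the gene that rose and in genes that did not pass the test.

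Before the results, the libraries were compared. Total estimated counts were 17507837 to 18512135 per sample, which placed 192 to 2621 reads on each of the 10 genes. No shMSLN sample had the form of the shNC samples, which held 0 missing values and 1094 to 1150 zeros. shMSLN replicate 1 held 1103 missing values and 0 zeros, and replicates 2 and 3 held 695 missing values each and 405 and 393 zeros. The counts of shMSLN replicates 2 and 3 stood apart further. Above 100 reads, 47.7% of their values were whole numbers, against 3.36% to 7.02% in the other 4 samples, and the sources used here do not say why. Each called Eph or ephrin gene is therefore also given with shMSLN replicate 1 alone against the 3 shNC samples. The same holds for the 10 partner genes with the smallest adjusted p, but not for the other partners named. MSLN itself fell from 228 to 36.2 CPM on average (counts relative to library size, scaled by the TMM method), a log2 fold change of -2.65 ± 0.042 (SE; adjusted p = 3.97e-15, edgeR), and it was -2.62 with shMSLN replicate 1 alone (adjusted p = 1.32e-09, edgeR). Summed TPM (a level relative to transcript length and library size) of 9 epithelial markers was 4445 to 4879 in shNC and 4036 to 4175 in shMSLN samples, of which KRT5, KRT6A, KRT18 and TP63 fell and CDH1 and KRT17 rose. KRT5 alone went from 2228 to 1759 TPM on average, the largest change within this sum, and EPCAM, KRT8 and KRT14 did not pass the test. The sum of 9 markers of stromal, endothelial and immune cells was 20.5 to 21.1 and 22.1 to 23.1 TPM, most of it COL1A1, which did not pass the test, while 1 of the 9, the endothelial marker VWF, rose from 5.06 to 6.73 CPM on average (log2 fold change 0.41, adjusted p = 0.0273, edgeR). Of the receptors used to class breast cancer, ESR1 rose from 6.56 to 9.39 TPM on average (log2 fold change 0.45, adjusted p = 0.000363, edgeR). ERBB2 measured 74.7 and 72.9 TPM on average and did not pass (adjusted p = 0.213, edgeR). PGR, at no more than 1 read in any sample, had a missing value and was not tested. The part of all these markers in the results was not tested.

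Among the 10 genes, 5 fell, 1 rose and 4 did not pass the test after MSLN silencing (edgeR's quasi-likelihood test, Benjamini-Hochberg adjusted p below 0.05 over 14552 tested genes). All 5 that fell were receptors: EPHA2, EPHA4, EPHB2, EPHB3 and EPHB4. The gene that rose was the ligand EFNB2. Across all tested genes 34.6% were called, 16.6% higher and 18.0% lower, so that calls as such were common in this comparison. With shMSLN replicate 1 alone the share called was 12.1%. Upper-quartile scaling turned the balance of all genes to 20.0% higher and 14.8% lower, and left the 10 genes at 5 lower and 1 higher. The median log2 fold change was -0.18 over the 10 genes, -0.23 over the 7 receptors and 0.01 over the 3 ligands, against 0.00 over all tested genes. Over the tested genes of the whole family, described below, the order was the other way. There the median was -0.07 over 12 receptors and -0.14 over 8 ligands. The values of the groups did not overlap for 7 of the 10 genes and for 46.2% of all tested genes. With 3 samples against 3, an exact two-sided permutation test of a single gene cannot go below p = 0.1.

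**Figure D1:**
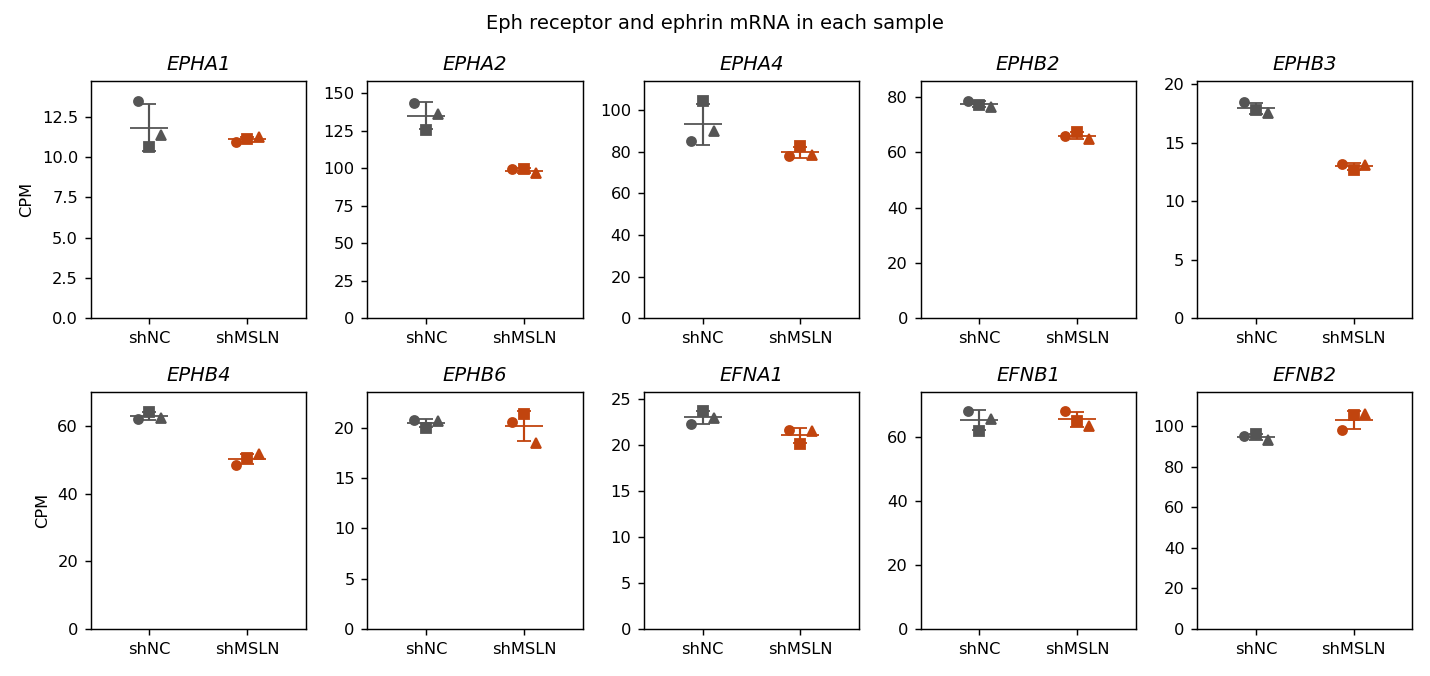
TMM-scaled CPM of the 10 genes (vertical axes, each from 0) in shNC (grey) and shMSLN (orange) samples; circles, squares and triangles are replicates 1, 2 and 3, and bars give the mean ± SD (n = 3). The shMSLN samples of EPHA2, EPHA4, EPHB2, EPHB3 and EPHB4 all lie under their shNC samples, those of EFNB2 lie above, and the samples of EPHA1, EPHB6 and EFNB1 overlap.

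EPHA2, a receptor for ephrin-A1 that is abundant in epithelial and basal-like breast cancer cells, was the most abundant of the 10 genes and showed one of the largest falls. It measured 143, 125 and 136 CPM in shNC replicates 1, 2 and 3, and 99.2, 99.6 and 96.6 CPM in the shMSLN replicates. The groups did not overlap, and the 3 shMSLN samples lay closer together than the shNC samples. The log2 fold change was -0.46 ± 0.049 (SE; 95% interval -0.56 to -0.35; adjusted p = 5.27e-06, edgeR), a fall of 27.1%. It was -0.44 with shMSLN replicate 1 alone (adjusted p = 0.00400, edgeR). Of all tested genes, 87.2% had a smaller absolute log2 fold change than EPHA2.

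EPHA4, the receptor able to bind ephrins of both kinds, changed less. Its shNC samples measured 85.3, 104 and 90.2 CPM and its shMSLN samples 77.9, 82.8 and 78.5 CPM, so that the highest shMSLN sample came close to the lowest shNC sample. This was a log2 fold change of -0.23 ± 0.062 (SE; adjusted p = 0.0116, edgeR). Much of its size came from shNC replicate 2, without which it was -0.14 (adjusted p = 0.0398, edgeR), and with shMSLN replicate 1 alone the call was lost (-0.26, adjusted p = 0.118, edgeR).

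EPHA1, an epithelial EphA receptor, was the least abundant per length of the 10 in shNC cells. Its values were 13.5, 10.6 and 11.4 CPM in shNC and 10.9, 11.1 and 11.2 CPM in shMSLN samples, which fell inside the shNC range. The log2 fold change of -0.09 ± 0.099 (SE; 95% interval -0.30 to 0.12; adjusted p = 0.498, edgeR) did not pass the test. At 192 to 246 reads per sample its interval was the widest of the 10 genes.

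The EphB receptors EPHB2, EPHB3 and EPHB4, which serve in tissues such as the intestinal crypt and the vessel wall and bind ephrin-B ligands, all fell. EPHB3 showed the largest fall of the 10 genes on the log2 scale. It measured 18.5, 17.9 and 17.5 CPM in shNC and 13.2, 12.7 and 13.1 CPM in shMSLN samples, with a wide gap between the groups. The log2 fold change was -0.47 ± 0.073 (SE; 95% interval -0.62 to -0.31; adjusted p = 0.000175, edgeR), a fall of 27.7%. Its interval overlapped that of EPHA2, so the order of these falls was not resolved. Against the controls, shMSLN replicate 1 alone gave -0.45 (adjusted p = 0.0271, edgeR).

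EPHB4, a marker of venous endothelium whose chief ligand is ephrin-B2, measured 62.2, 64.2 and 62.5 CPM in shNC and 48.6, 50.7 and 51.7 CPM in shMSLN samples. Again the groups lay well apart. On the log2 scale the change was -0.32 ± 0.047 (SE; 95% interval -0.42 to -0.22; adjusted p = 8.79e-05, edgeR), and -0.37 with shMSLN replicate 1 alone (adjusted p = 0.00929, edgeR).

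EPHB2 had closely spaced replicates in both groups. It measured 78.8, 77.3 and 76.5 CPM in shNC and 66.0, 67.4 and 64.9 CPM in shMSLN samples, without overlap. The log2 fold change was -0.23 ± 0.043 (SE; 95% interval -0.32 to -0.14; adjusted p = 0.000851, edgeR). With shMSLN replicate 1 alone the size was alike at -0.23 but the adjusted p was 0.0655 (edgeR), which no longer passed.

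EPHB6, the receptor without kinase activity, was the only EphB receptor of the 10 genes that did not pass the test. It measured 20.8, 20.0 and 20.7 CPM in shNC and 20.6, 21.4 and 18.5 CPM in shMSLN samples, which lay on both sides of the shNC values. Its log2 fold change was -0.02 ± 0.072 (SE; 95% interval -0.17 to 0.13; adjusted p = 0.846, edgeR), an interval that does not reach the estimates of EPHB2, EPHB3 or EPHB4. The difference between these genes was not tested.

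The ligands moved little. EFNB2, the ephrin-B ligand of arterial endothelium and a partner of EphB4, measured 94.9, 95.8 and 92.9 CPM in shNC and 98.1, 105 and 106 CPM in shMSLN samples. All shMSLN values lay above the shNC values, and replicate 1 was the lowest of them. The log2 fold change of 0.12 ± 0.044 (SE; 95% interval 0.03 to 0.22; adjusted p = 0.0380, edgeR) was a rise of 9.04%. This call did not withstand other choices: the adjusted p was 0.0746 with DESeq2, 0.139 without shNC replicate 3, 0.150 without shMSLN replicate 2, 0.152 without shMSLN replicate 3 and 0.671 with shMSLN replicate 1 alone (log2 fold change 0.05).

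EFNA1, the main ligand of EphA2, measured 22.3, 23.7 and 23.0 CPM in shNC and 21.6, 20.1 and 21.5 CPM in shMSLN samples. The groups did not overlap, but the log2 fold change of -0.13 ± 0.065 (SE; 95% interval -0.26 to 0.01; adjusted p = 0.149, edgeR) did not pass. EFNB1, an ephrin-B ligand encoded on the X chromosome, measured 68.1, 61.9 and 65.6 CPM against 68.1, 65.1 and 63.4 CPM, with overlapping groups. Its log2 fold change was 0.01 ± 0.050 (SE; 95% interval -0.10 to 0.11; adjusted p = 0.929, edgeR).

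**Figure D2:**
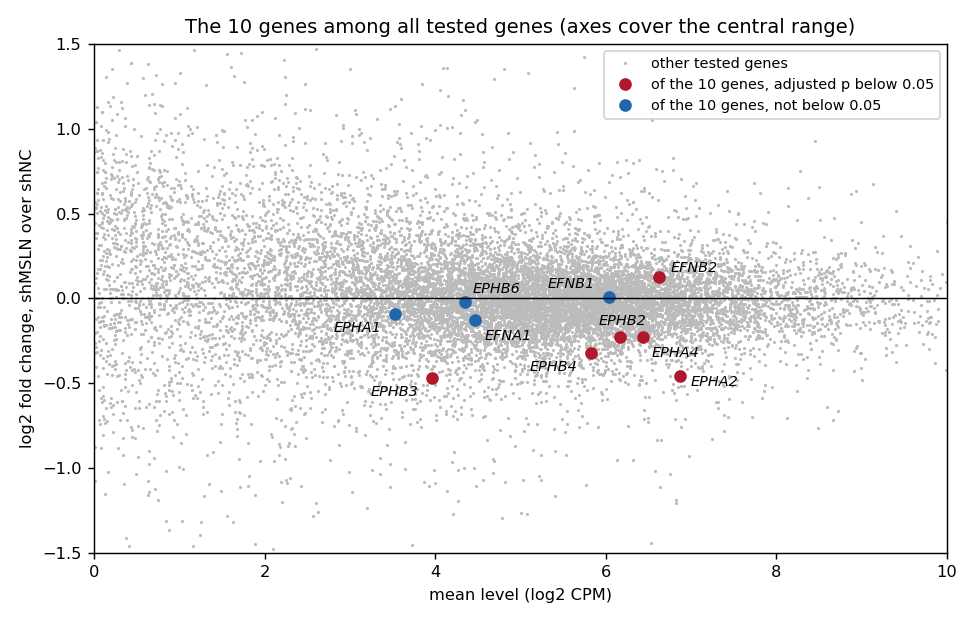
Log2 fold change of shMSLN over shNC (vertical axis) against mean log2 CPM (horizontal axis) for the tested genes, with the 10 Eph and ephrin genes in red (adjusted p below 0.05) or blue; the axes leave out 759 of the 14552 genes. EPHA2 and EPHB3 lie in the lower part of the cloud at their level, and the ligands lie near 0.

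Compared per transcript length, the levels had an order that was largely kept. In shNC cells EPHA2 was highest at 75.4 ± 3.66 TPM (SD, n = 3), and in shMSLN cells it was still highest at 56.0 ± 0.922 TPM. EFNB1 (43.1 TPM on average) and EFNB2 (41.0 TPM) followed in shNC cells with overlapping samples, then EPHB2 at 38.8 TPM. EPHB4, EFNA1 and EPHA4 lay together at 31.9 to 33.0 TPM on average, and neighbors among them did not differ beyond their spread. EPHB6 (11.4 TPM), EPHB3 (9.23 TPM) and EPHA1 (7.79 TPM) were lowest, each apart from its neighbors in this order. In shMSLN cells EPHB4 (26.8 TPM) came after EFNA1 (30.9 TPM) and EPHA4 (27.8 TPM), with samples overlapping those of EPHA4, and EPHB3 (6.83 TPM) came after EPHA1 (7.49 TPM).

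Summed over the 7 receptors, the level was 208, 209 and 205 TPM in shNC and 169, 173 and 168 TPM in shMSLN samples. Summed over the 3 ligands, it was 116, 119 and 115 TPM against 120, 121 and 122 TPM. The shMSLN sums of TPM therefore lay under all shNC sums for the 7 receptors and above them for the 3 ligands. The rise of the ligand sum was partly a matter of scaling. EFNA1, EFNB1 and EFNB2 had log2 ratios of group means of -0.093, 0.042 and 0.154 by TPM. By CPM these were -0.126, 0.007 and 0.125, and summed CPM was not compared. The ratio of receptor to ligand TPM was 1.77 ± 0.019 (SD, n = 3) in shNC and 1.41 ± 0.027 in shMSLN cells. By receptor and ligand pairs known to bind, the TPM ratio of EPHB4 to EFNB2 was 0.804 ± 0.014 in shNC and 0.588 ± 0.014 in shMSLN cells. The ratio of EPHB2 to EFNB1 was 0.902 ± 0.019 and 0.763 ± 0.017, and that of EPHA2 to EFNA1 was 2.30 ± 0.23 and 1.81 ± 0.095. None of the pairs overlapped between groups, but their receptors EPHA2, EPHB2 and EPHB4 had each fallen without overlap. The gap in these ratios thus largely restates those falls. Pairs with EPHA1 or EPHB6, which did not pass the test, were not compared. These ratios are descriptions of mRNA with no test of their own, and they say nothing of protein at the cell surface. In bulk RNA, fewer cells expressing a gene and less RNA per cell cannot be told apart.

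**Figure D3:**
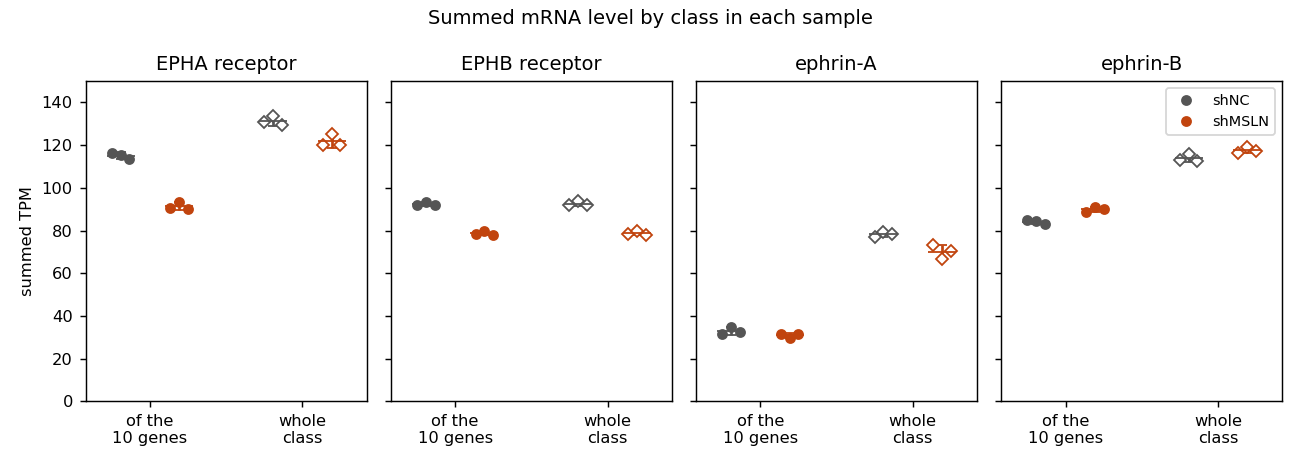
Summed TPM (vertical axis, from 0) of EphA receptors, EphB receptors, ephrin-A and ephrin-B ligands in shNC (grey) and shMSLN (orange) samples, over those of the 10 genes in each class (filled circles) and over the whole class in the table (open diamonds); bars give the mean ± SD (n = 3). The EphA receptors of the 10 genes lie at 113 to 117 TPM in shNC and 90.1 to 93.5 TPM in shMSLN samples, a wider gap than that of the whole class (129 to 134 and 120 to 125 TPM).

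The rest of the family was read alongside. Of 12 further Eph and ephrin genes in the table, 10 were tested, of which 3 rose, 3 fell and 4 did not pass. EPHB1, at no more than 5 reads in any sample, was under the filter on low counts, and EPHA8, at no more than 3 reads, had no value in shMSLN replicate 1. The 3 that rose were EphA receptors, and their changes were larger than those of any of the 10 genes. EPHA3, a receptor first found on leukemic cells, measured 7.72, 9.76 and 7.68 CPM in shNC and 18.6, 22.0 and 19.9 CPM in shMSLN samples. Its log2 fold change was 1.26 ± 0.10 (SE; adjusted p = 2.92e-07, edgeR), and 1.15 with shMSLN replicate 1 alone (adjusted p = 0.000291, edgeR).

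EPHA7, best known from the developing brain, measured 22.8, 29.7 and 26.3 CPM in shNC and 44.7, 45.4 and 44.7 CPM in shMSLN samples, and these groups lay far apart. EPHA7 had a fold change of 0.78 on the log2 scale, ± 0.075 (SE; adjusted p = 1.79e-06, edgeR), and 0.77 with shMSLN replicate 1 alone (adjusted p = 0.000872, edgeR). EPHA6, also mainly a neural receptor, measured 2.30, 3.10 and 1.84 CPM against 4.30, 5.55 and 5.70 CPM (log2 fold change 1.10 ± 0.19, SE; adjusted p = 0.000515, edgeR). With shMSLN replicate 1 alone EPHA6 was at 0.83 and did not pass (adjusted p = 0.0712, edgeR). The deposited TPM of EPHA6 moved by more than its counts, a log2 ratio of mean TPM of 1.92, because 100 of its reads stood for 1.18 to 2.18 TPM in shNC but 2.91 to 3.56 TPM in shMSLN samples. For each of the 10 genes the log2 ratios of mean TPM and mean CPM differed by at most 0.04.

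As EPHA2 and EPHA4 fell while EPHA3, EPHA6 and EPHA7 rose, the makeup of EphA mRNA differed between the groups. EPHA2 made up 60.4%, 53.6% and 58.3% of the TPM of all EphA receptors in shNC samples and 46.8%, 45.4% and 45.8% in shMSLN samples. EPHA3, EPHA6 and EPHA7 together made up 8.72%, 11.4% and 9.29% in shNC and 22.1%, 22.4% and 22.1% in shMSLN samples. These genes were grouped because they had risen in the same samples, so the gap in these shares largely restates those calls. The TPM of EPHA6 also moved by more than its counts, as given above. Over the whole family of 22 genes, the ratio of receptor to ligand TPM was 1.17 ± 0.0053 (SD, n = 3) in shNC and 1.07 ± 0.030 in shMSLN cells, a smaller difference than for the 10 genes. Over all 8 ephrins the sums were 190, 195 and 191 TPM in shNC and 189, 186 and 188 TPM in shMSLN samples, so that the ligand sum was lower in shMSLN samples here, opposite to the 3 ligands above.

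The 3 ligands that fell were EFNA2 (3.77 to 4.12 CPM in shNC and 2.69 to 3.31 CPM in shMSLN samples, log2 fold change -0.44, adjusted p = 0.0428, edgeR), EFNA3 (10.8 to 8.31 CPM on average, -0.38, adjusted p = 0.0190, edgeR) and EFNB3 (43.7 to 39.7 CPM on average, -0.14, adjusted p = 0.0444, edgeR). These were weak calls, and with shMSLN replicate 1 alone none passed (adjusted p = 0.151, 0.204 and 0.353, edgeR). EPHA5, EPHA10, EFNA4 and EFNA5 had log2 fold changes of -0.18 to -0.01 and adjusted p of 0.117 to 0.973 (edgeR). Of these, EFNA5 depended on the samples used: it was at -0.26 and called without shNC replicate 1 (adjusted p = 0.00948, edgeR), and at -0.10 without shNC replicate 3 (adjusted p = 0.416, edgeR). The annotation also holds a transcript joining EFNA4 and EFNA3 on the same strand, which shares 189 and 853 exon bases with them and has no row in the table, so the split of reads between them is uncertain.

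**Figure D4:**
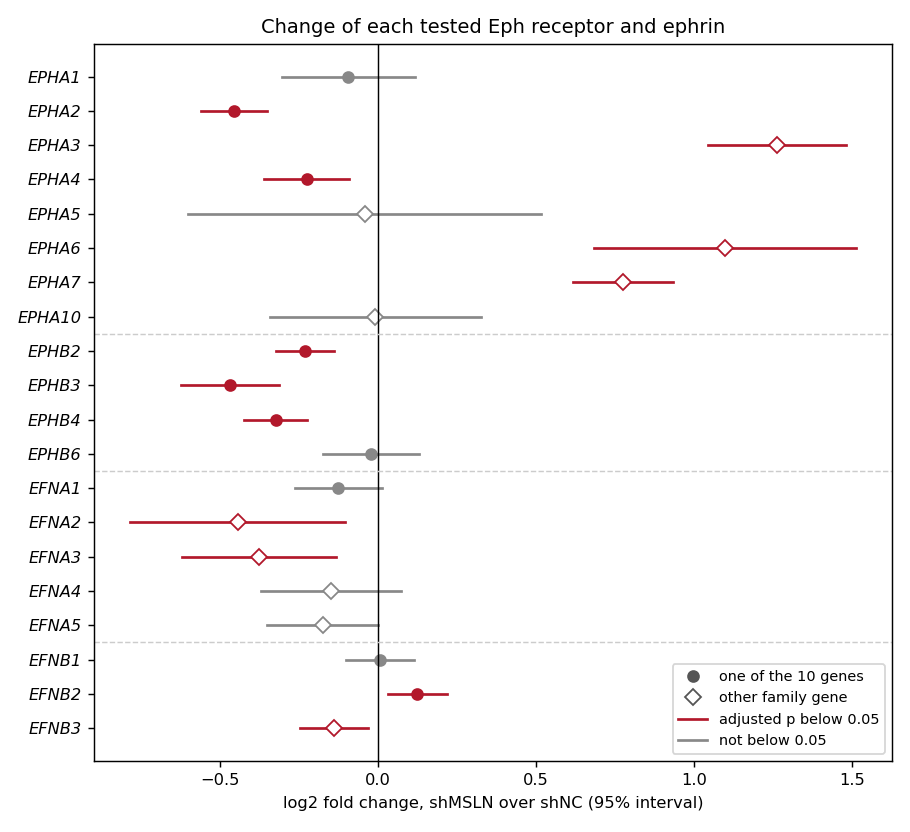
Log2 fold change of shMSLN over shNC (horizontal axis) with its 95% interval for the 20 tested Eph receptors and ephrins, ordered by class; filled circles are the 10 genes, open diamonds the other family genes, and red marks an adjusted p below 0.05 (edgeR). EPHA2, EPHA4, EPHB2, EPHB3 and EPHB4 lie left of 0, whereas EPHA3, EPHA6 and EPHA7 lie furthest right.

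A list of 44 genes whose products act with Eph receptors was examined next: sheddases, GTPase regulators, adaptors, cytoplasmic kinases, phosphatases and PDZ-domain binders. Of the 40 tested, 15 fell, 3 rose and 22 did not pass, with a median log2 fold change of -0.10, beside 18.0% lower and 16.6% higher among all tested genes. With shMSLN replicate 1 alone, 7 of the 42 then tested were called, against 12.1% of all genes. These 7 were SDCBP, PARD6B, GRB10, NCK1 and CBL, which were lower, and TIAM1 and MMP14, which were higher. The 3 that rose were TIAM1, VAV3 and MMP14, of which TIAM1 and VAV3 activate Rac and MMP14 is a membrane metalloprotease that can cleave EphA2. TIAM1 went from 26.8 ± 1.56 to 36.2 ± 2.15 CPM (SD, n = 3; log2 fold change 0.43, adjusted p = 0.000127, edgeR; 0.51 with shMSLN replicate 1 alone). MMP14 went from 264 ± 8.93 to 307 ± 5.62 CPM (log2 fold change 0.22, adjusted p = 0.000375, edgeR; 0.25 with shMSLN replicate 1 alone). VAV3 went from 80.1 ± 2.43 to 90.9 ± 1.23 CPM (log2 fold change 0.18, adjusted p = 0.00401, edgeR).

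Among the partners that fell, SDCBP, the gene of syntenin, which binds the tails of ephrin-B proteins, went from 257 ± 10.3 to 205 ± 8.46 CPM (log2 fold change -0.33, adjusted p = 3.44e-05, edgeR; -0.38 with shMSLN replicate 1 alone). PARD6B, a polarity protein of a family bound by ephrin-B1, went from 25.3 ± 2.50 to 17.0 ± 0.377 CPM (-0.57, adjusted p = 5.43e-05, edgeR; -0.59 with that replicate alone). The adaptor GRB10 went from 16.1 ± 1.23 to 10.9 ± 0.906 CPM (-0.56, adjusted p = 0.000250, edgeR; -0.50 with that replicate alone). The SH2 adaptors NCK1 and NCK2, which link activated receptors to actin regulators, both fell (-0.29 and -0.25, adjusted p = 0.000385 and 0.00294, edgeR). Against the controls, shMSLN replicate 1 alone gave -0.35 for NCK1 and -0.23 for NCK2, and NCK2 no longer passed (adjusted p = 0.125, edgeR).

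CBL, a ubiquitin ligase that marks activated receptors for degradation, was at -0.27 on the log2 scale (adjusted p = 0.000758, edgeR; -0.29 with shMSLN replicate 1 alone). ANKS1A, an adaptor of EphA receptors, was at -0.23 (adjusted p = 0.00105, edgeR) and INPPL1, the lipid phosphatase SHIP2 that binds EphA2, at -0.17 (adjusted p = 0.00379, edgeR). Neither of the latter passed with shMSLN replicate 1 alone (-0.22 and -0.11, adjusted p = 0.0885 and 0.307, edgeR). The phosphatases PTPN1, PTPN11 and ACP1, which dephosphorylate signaling proteins, had log2 fold changes of -0.06, -0.05 and 0.05 and did not pass (adjusted p = 0.300, 0.341 and 0.364, edgeR). ADAM10, the sheddase that cleaves ephrin-A ligands, measured 341 ± 10.8 CPM in shNC and 343 ± 9.51 CPM in shMSLN cells (SD, n = 3; log2 fold change 0.01 ± 0.038, SE; adjusted p = 0.886, edgeR), and did not pass the test.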

How the data were processed

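RNA of 3 shNC and 3 shMSLN samples of HCC1806/HM3 cells was enriched with oligo(dT) and sequenced by BGI. The authors deposited 1 table of 17860 genes with estimated counts per gene, which are not scaled to depth, and with TPM, which is scaled for length and depth. Deposited FPKM values were not used. The submitters' processing notes name the build GRCh38.p13, and the aligner and quantifier are not given in the sources used here. Marks for missing values stand in the shMSLN columns, and the 1287 genes concerned were left out.

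Columns were mapped to samples by name. Estimated counts were rounded to whole numbers and entered in edgeR's quasi-likelihood test (edgeR 4.0.16 under R 4.3.3; TMM scaling, filterByExpr for low counts, Benjamini-Hochberg adjustment over 14552 genes). SE values came from the same fit, and intervals of 95% from its degrees of freedom. Exact permutation tests used log2 of CPM plus 0.5. Levels between genes used the deposited TPM, without tests. The procedure was tested on simulated data. The genes named were the 10 Eph and ephrin genes, the rest of the family, the 10 tested partner genes with the smallest adjusted p below 0.05, and markers as lists. VAV3, ADAM10, PTPN1, PTPN11 and ACP1 were named after their values were seen, as were single markers. The 10 genes and the lists were chosen with earlier results of these data known. Counting error weighs most on EPHA1, which had the fewest reads of the 10 genes (192 in 1 sample).

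Replicate numbers are shared by the groups in the labels, but nothing says that they mark a shared day or batch. Deviations from the group means correlated between same-numbered samples by 0.296, 0.111 and 0.114 over 10502 genes of at least 10 CPM, and by 0.165, 0.0764 and 0.0718 over all 14552 tested genes. Alternatives were other scalings (RLE, upper quartile), filters, DESeq2 1.42.0, limma-voom (limma 3.58.1), missing values as 0 counts, the replicate number as a block and leaving out each sample. The comparison with shMSLN replicate 1 alone was chosen after seeing the data.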

Additional observations from a re-analysis of the deposited data

How the results depend on the processing

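Over 15 alternatives, the calls of EPHA2, EPHB3 and EPHB4 were kept in all 15, those of EPHA4 and EPHB2 in 14 and that of EFNB2 in 10. EPHA4 came close to the threshold, with adjusted p of 0.0475 without shMSLN replicate 3 and 0.049996 without shMSLN replicate 1 (edgeR). For EPHB2 the highest adjusted p on leaving out a sample was 0.00811 (edgeR). Of the 150 values of the 10 genes, 137 kept their direction and their side of the threshold, 7 lost a call and 6 changed sign. With shMSLN replicate 1 alone, 1797 genes were called, with 3 of the 10 Eph and ephrin genes, 2 of the other family genes and 7 of the 42 partners then tested. A lone sample is there assumed to vary like the shNC samples, and the cause was not tested. Leaving out 1 sample in turn gave 3695 to 5399 called genes, 5 to 6 of the 10, 3 to 6 of the other family genes (3 without shNC replicate 3) and 13 to 19 partners. DESeq2 called 3863 genes. Among the tested Eph and ephrin genes, EFNA5 was the only one to gain a call, without shNC replicate 1 (-0.26). Partners outside the 10 with the smallest adjusted p, and the markers, were not followed singly.

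The genes that changed sign passed the test under none of the alternatives concerned. With upper-quartile scaling, which moved the median of all genes to 0.03, EPHB6 was at 0.00787 and EPHA10 at 0.0211 on the log2 scale. With shMSLN replicate 1 alone EPHB6 was at 0.0116 and EFNA4 at 0.0515. When samples were left out in turn, EPHA1 ranged from -0.163 to 0.0102, EPHB6 from -0.0638 to 0.0383, EFNB1 from -0.0278 to 0.0387, EPHA5 from -0.359 to 0.102 and EPHA10 from -0.102 to 0.106.

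With the replicate block 5789 genes were called. The same 6 of the 10 genes, 6 other family genes and 18 partners were called as without it. Over all tested genes each same-numbered pair correlated more than any pair of unlike numbers, of which the highest was 0.0355. Over the abundant genes every same-numbered pair correlated above 0. There, however, shNC replicate 2 correlated more with shMSLN replicate 3 (0.162) than with shMSLN replicate 2 (0.111). Depth limits EPHA1, EPHB3 and the low family genes most.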
